A study of Homo sapiens with 14 samples.

Results

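SNARE proteins are the fusion machines of the cell's membranes: a protein on the vesicle and partners on the target membrane zip into a bundle of helices and pull the membranes together. The proteins that supply the bundle are sorted by position into Qa, Qb, Qc and R SNAREs. In the endocytic route, STX7 (Qa), VTI1B (Qb) and STX8 (Qc) work with VAMP8 in the fusion of late endosomes and with VAMP7 in their fusion with lysosomes. STX16 (Qa), VTI1A (Qb) and STX6 (Qc) serve transport from endosomes to the trans-Golgi network. SNAP29 supplies the Qb and Qc helices in the fusion of autophagosomes with lysosomes, and YKT6 is a lipid-anchored R SNARE of Golgi, endosomal and autophagosomal fusion. Delivery of internalised delta opioid receptor to lysosomes passes through these membranes.

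The 10 genes above were chosen by name, and every guide whose name began with one of their symbols was taken. They had 55 guides at 11 starts, of 101880 targeting guides for 18905 genes in the whole screen. The cells were HEK293 FLP-In, a human embryonic kidney line with a docking site for transgenes, carrying SSF-DOR-APEX2 from the pUBC construct and, after a lentiviral step, dCas9-KRAB-BFP in expanded clonal populations. DOR is the delta opioid receptor, APEX2 a peroxidase fused to it, and dCas9-KRAB a repressor that a guide RNA leads to a gene's start. Guides of the genome-wide CRISPR interference library came in 7 sublibraries, H1 to H7. Virus was added at a multiplicity of infection of about 0.2, carriers were selected in puromycin at 0.75 µg/ml for 3 days, and the assay followed after 8 days of growth in all. All cells were stimulated with 10 µM of the opioid peptide DADLE for 90 minutes, then reacted while intact for 1 minute with Amplex UltraRed (100 µM) and hydrogen peroxide (50 µM), and the brightest (top) and dimmest (bottom) quartiles were sorted and their guides sequenced.

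The groups were the top and the bottom quartile of each sublibrary, with 1 library in each of the 14 groups, so no difference has a replicate check. Cells without DADLE are not part of the comparison, so loss of receptor after the agonist cannot be told apart from other changes in APEX2 signal. STX7, VTI1B, STX6, VTI1A and YKT6 lay in H3, whose top library held 31762301 and bottom library 27478717 counts. STX8, VAMP8, VAMP7, STX16 and SNAP29 lay in H4, where the top table ended after 35 complete guides. Only their abundance in the H4 bottom library, of 16805160 counts, was used. How far each gene was repressed was not analysed here, and read counts do not give the number of cells.

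None of the 5 compared SNARE genes differed between bright and dim cells beyond the spread of non-targeting guides. Their means of log2(top/bottom) over 5 guides lay between -0.07 and 0.07, where a value above 0 means a larger share of the bright than of the dim cells. Each guide's ratio was taken after scaling to the library totals and centred on the 290 non-targeting guides of H3. Of the 5 genes 0 passed an adjusted p of 0.05 in a two-sided permutation test against non-targeting guides. Among the 3323 gene starts tested in H3, 7.46% passed (4.18% toward the top library and 3.28% toward the bottom library). Of all 18116 starts tested, 3.90% passed. At each of these shares, and at those given below for edgeR and the fold rule, fewer than 1 of 5 starts would pass. At an unadjusted p under 0.05 the count was also 0, against 575 of the 3323 starts in H3, a share at which fewer than 1 of 5 starts would be counted. The quasi-likelihood test of edgeR, in which each guide formed a block, called 0 of the 5 and 1.49% of all starts it could test. None reached a mean of at least 0.32 in size with 80% of guides on its side, a rule met by 7.16% of starts in H3 and 5.88% of all. These tests compare the libraries of a single sort, not repeated sorts.

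The size of difference that could be seen sets the limit of this result. Single non-targeting guides of H3 had an SD of 0.215, which gives 0.096 for a mean of 5 guides, whereas counting alone would give a single guide 0.050. Among H3 starts with 5 guides the smallest mean that passed was 0.31 in size and the largest that did not was 0.45. A shift of the SNARE genes smaller than about that range was not detectable here. The median size of their means was 0.02, against 0.08 for all starts of H3, and 44.6% of the H3 starts had a mean no larger in size than that of YKT6, the farthest of the 5 from 0.

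STX7, the Qa SNARE of late endosomes, had 1024, 2028, 2226, 1462 and 1367 counts in the H3 top library for its guides in order of position, against 740, 1783, 2068, 1019 and 1803 counts in the H3 bottom library. The log2 ratios of these guides were 0.27, -0.01, -0.09, 0.32 and -0.60. The guides thus fell on both sides of 0, and the last was lower than all but 0.690% of non-targeting guides. The mean was -0.02 ± 0.37 (SD, n = 5 guides), with a permutation adjusted p of 0.974.

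VTI1B, the Qb partner of STX7, had 2057, 3143, 1798, 727 and 913 counts in the top library and 1554, 2542, 1832, 447 and 957 counts in the bottom library. Its guides had ratios of 0.21, 0.11, -0.22, 0.50 and -0.26. The guide farthest toward the bright side, above 98.3% of non-targeting guides, was also the one with the fewest counts among the 25 guides compared. In H3 the 97 non-targeting guides with the fewest counts had an SD of 0.289, against 0.155 in the 97 with the most. The mean of VTI1B was 0.07 ± 0.32 (SD, n = 5 guides; permutation adjusted p 0.882), the highest of the 5 genes.

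STX6, the Qc SNARE of the trans-Golgi route, had 2080, 1774, 3343, 1820 and 1970 counts in the top library, against 2218, 1227, 3002, 1454 and 1790 counts in the bottom library. The ratios were -0.29, 0.34, -0.04, 0.13 and -0.06, all within the central 95% of non-targeting guides, with a mean of 0.02 ± 0.23 (SD, n = 5 guides; permutation adjusted p 0.980). Its Qb partner VTI1A had 3955, 1426, 1073, 2976 and 1461 counts in the top library and 3167, 1233, 961, 2499 and 1531 counts in the bottom library. These 5 guides lay closest together of any compared member, at 0.12, 0.01, -0.04, 0.06 and -0.26. Their mean was -0.02 ± 0.15 (SD, n = 5 guides; permutation adjusted p 0.972).

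YKT6, whose counterpart in Saccharomyces cerevisiae is essential, had 1770, 1552, 1345, 2781 and 2620 counts in the top library for its guides, against 1526, 1796, 970, 2530 and 2571 counts in the bottom library. Ratios of 0.02, -0.41, 0.28, -0.06 and -0.17 gave a mean of -0.07 ± 0.25 (SD, n = 5 guides; permutation adjusted p 0.878), the lowest of the 5. Summed over its guides, YKT6 had 317 CPM (counts scaled to an equal total per library) in the top and 342 CPM in the bottom library. STX7 had 255 CPM in the top and 270 in the bottom library, and VTI1B had 272 in the top and 267 in the bottom library. These sums lean on the guides with the most reads, while the means above weigh each guide alike.

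**Figure D1:**
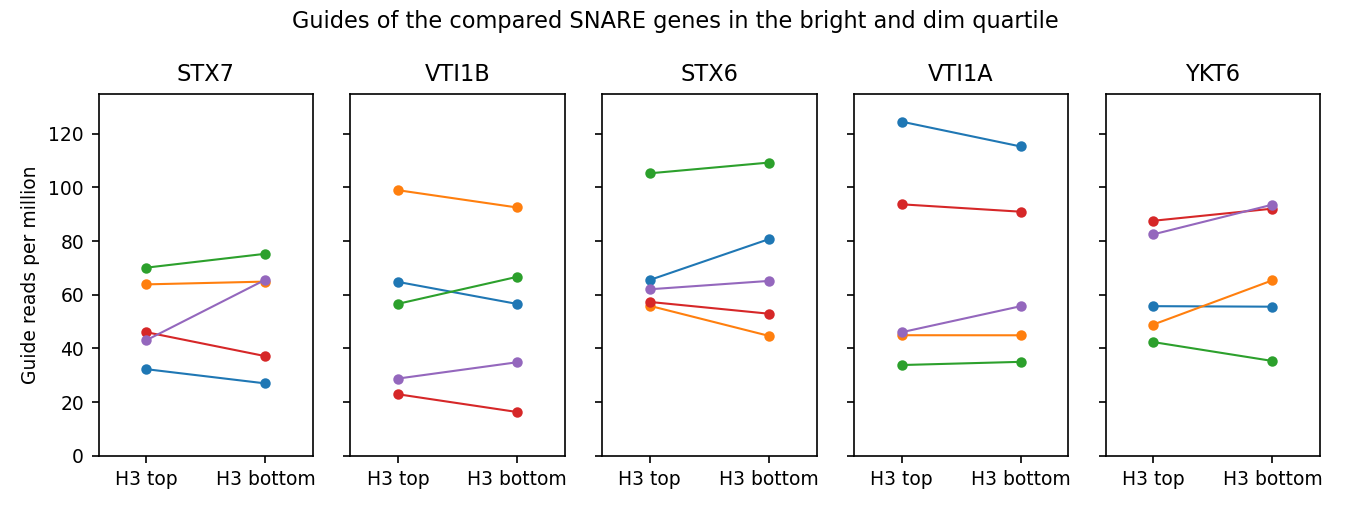
CPM, counts scaled to each library's total (vertical axis), for the 5 guides of each compared SNARE gene in the H3 top and H3 bottom libraries; each line is a guide. In every gene some lines rise and some fall between the quartiles, and the guides of a gene differ more from each other than the quartiles do.

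Ordered by mean, the genes ran YKT6, VTI1A, STX7, STX6 and VTI1B, and the ranges of their guides overlapped between all neighbours. Over the 25 guides, 12 lay above and 13 below 0, with a median of -0.01, an SD of 0.254 and extremes of -0.60 and 0.50. Those extremes, in STX7 and VTI1B, were the 2 guides outside the central 95% of non-targeting guides. The counting SD of these guides was between 0.034 and 0.087 on the log2 scale, so the spread within a gene was larger than counting gives.

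**Figure D2:**
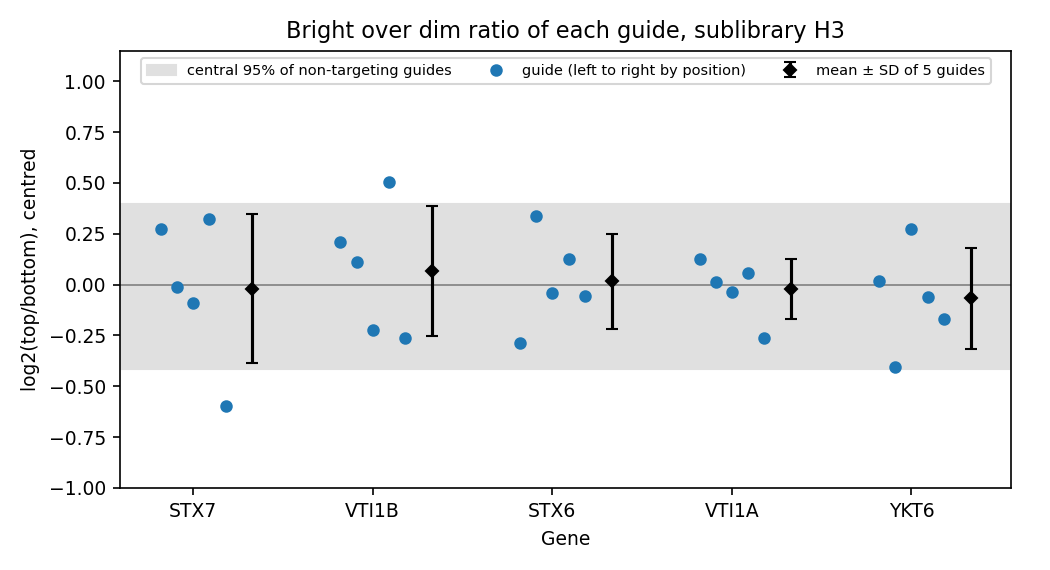
Centred log2(top/bottom) of each guide of the compared SNARE genes (blue points, left to right by position), with the mean and SD of the 5 guides (black) and the central 95% of non-targeting guides of H3 (grey). The means lie between -0.07 and 0.07, and 2 of 25 guides lie outside the grey band.

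The 3 pairs of guides that lay almost on top of each other on the same strand gave opposite signs. A STX7 pair on the same strand, 9 bases apart, had ratios of 0.32 and -0.60. A YKT6 pair 3 bases apart had -0.41 and 0.28, and a STX6 pair 8 bases apart had -0.29 and 0.34. These were the 3 pairs of compared members within 10 bases on a strand, and they differed by 0.92, 0.68 and 0.62. On opposite strands, the VTI1A guides 27 and 34 bases from its first guide had 0.01 and -0.04. Differences of 0.6 or more, a bound just below the smallest of the 3, were found in 6.99% of the 1904 same-strand pairs in H3. Among all pairs of non-targeting guides there the share was 5.39%. The median difference was 0.19 in both, and 44.5% of the close pairs in H3 had opposite signs.

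The guides of a start covered 346 to 435 bases in the compared genes. Of the 5, only VTI1A had guides of another gene within 1000 bases, those of ZDHHC6, a protein palmitoyltransferase, 349 bases away at the nearest. ZDHHC6 had a mean of 0.09 ± 0.13 (SD, n = 5 guides; permutation adjusted p 0.850). No guide of the 10 genes was listed under another target. In H4, SNAP29 guides lay 289 bases from those of PI4KA, which had -0.09 in H1. Guides at the P2 start of VAMP8 lay 107 bases from those of GGCX, which had 0.06 in H1; neither passed.

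The stretch to which the repressor is directed in an interference screen lies around the gene's start. For the genes with the lowest and the highest mean, the 250 bases before the RefSeq start are shown, on GRCh38.p14. They hold only bases before the start and not the whole targeted stretch. The guides spanned 356 bases in YKT6 and 435 in VTI1B. YKT6 is at chr7:44200728-44200977 on the plus strand and VTI1B at chr14:67674633-67674882 on the minus strand. Capitals mark GGGCGG or its reverse complement, a GC box. The guide names carry positions without a genome build, so the guides were not placed on these sequences.
YKT6: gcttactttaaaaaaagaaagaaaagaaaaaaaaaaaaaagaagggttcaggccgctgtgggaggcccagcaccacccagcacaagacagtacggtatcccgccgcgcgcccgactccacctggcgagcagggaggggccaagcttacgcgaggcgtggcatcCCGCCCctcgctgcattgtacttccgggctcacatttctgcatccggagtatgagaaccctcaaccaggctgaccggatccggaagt
VTI1B: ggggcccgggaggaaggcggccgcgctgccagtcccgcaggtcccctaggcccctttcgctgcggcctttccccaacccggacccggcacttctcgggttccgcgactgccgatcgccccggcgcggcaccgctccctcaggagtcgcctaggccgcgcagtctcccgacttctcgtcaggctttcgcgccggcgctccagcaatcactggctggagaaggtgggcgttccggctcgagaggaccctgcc

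GGGCGG was sought on both strands and was found once before YKT6 and in 42.6% of the 35116 promoters in the table. The 250 bases of VTI1B held none and were 72.4% G and C, against 56.8% for YKT6 and a median of 58.0% over all promoters. CACGTG, found in 6.34% of promoters, and TATAAA on either strand, found in 10.7%, occurred in neither sequence. Among the other members CACGTG occurred before STX6 and SNAP29, and GGGCGG before VAMP8, STX16 and SNAP29.

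How common the guides were in the sorted cells is another readout of the same libraries. It was taken as log2 of the share of both libraries, relative to the median non-targeting guide. Guides of YKT6 had a mean of 0.13 ± 0.51 in H3, those of STX6 0.23 ± 0.43, VTI1A 0.10 ± 0.75, STX7 -0.20 ± 0.52 and VTI1B -0.30 ± 0.90 (SD, n = 5 guides each). None lay in the lowest 5% of H3 starts, which lay below -0.67, and the median start was at -0.06. The make-up of the library before transduction was not analysed here, so an abundance also carries how often a guide was in the library. It has no replicate and was not tested.

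For the 5 genes in H4 the bottom library alone gave the abundance. STX8, the Qc partner of STX7, had 142, 1979, 1727, 1107 and 2186 counts, the first of them 8.45 CPM and far below the rest. Its mean was -0.40 ± 1.64 (SD, n = 5 guides), the lowest of the 11 starts in the bottom libraries, and its median over guides was 0.34. That mean was at percentile 23.4 of H4 starts. VTI1B, with -0.34 in the H3 bottom library, was at percentile 20.1 of H3 starts. VAMP7, an R SNARE with a folded longin domain, had 829, 1002, 422, 2585 and 1837 counts and a mean of -0.30 ± 1.02. SNAP29 had 999, 1109, 2542, 1697 and 599 counts and a mean of -0.14 ± 0.79.

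VAMP8 was the only member with guides at 2 start labels, and these lay farther apart than the span of either set. Its P1 guides had 1614, 1454, 1020, 1161 and 2311 counts, with a mean of 0.09 ± 0.46. Its P2 guides had 1462, 485, 1408, 2319 and 2728 counts, with a mean of 0.08 ± 0.97 (SD, n = 5 guides each), so the starts differed by less than the spread of their guides. STX16, the Qa SNARE of the trans-Golgi route, had 1375, 2081, 2485, 1211 and 1813 counts and the highest mean of the 11 starts, 0.35 ± 0.42, at percentile 93.2 of H4 starts. The lowest 5% of H4 starts lay below -0.84, which no member reached.

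**Figure D3:**
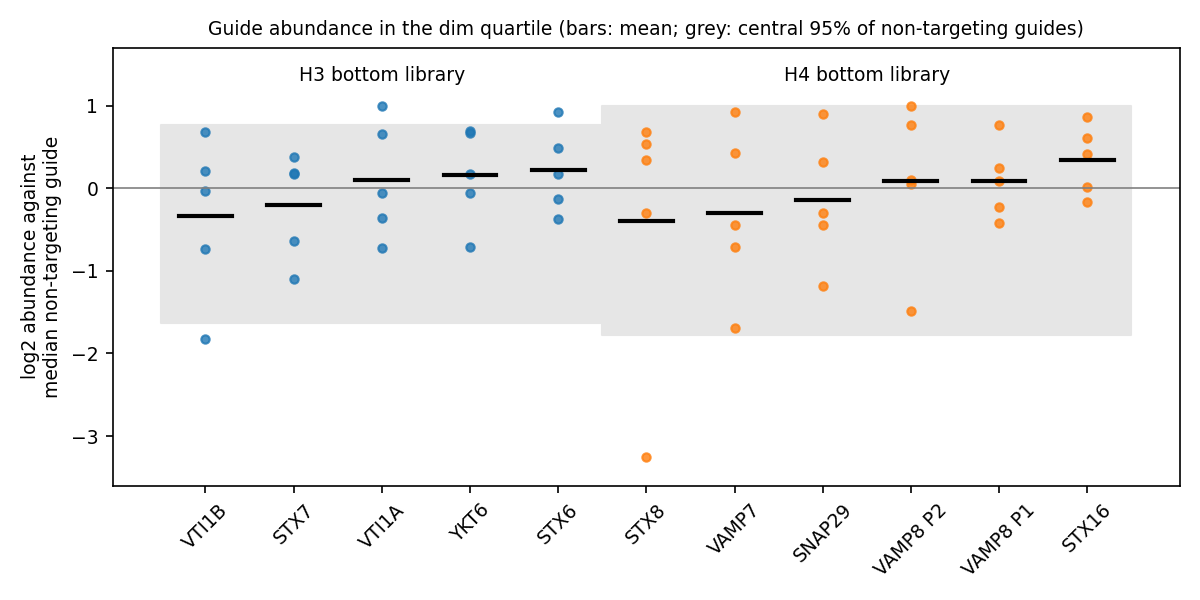
log2 abundance of each guide in the bottom libraries of H3 (blue) and H4 (orange) relative to the median non-targeting guide, for the 11 starts of the 10 SNARE genes; black bars are means over 5 guides and grey bands the central 95% of non-targeting guides. Means run from -0.40 for STX8 to 0.35 for STX16, and the guide of STX8 at -3.25 lies far below the band. A guide of VTI1B at -1.83 lies a little below its band, and guides of STX6, VTI1A and VAMP8 P2 lie above theirs.

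Other SNAREs were read from a list of 27 genes, of which 18, with 19 starts, were compared and 9 lay in H4. Of the 19 starts 1 passed toward the top library and 0 toward the bottom library, against 2.38% and 1.52% of all starts tested, so the count was near the background. An unadjusted p under 0.05 was found for 3 of the 19, against 2243 of all 18116 starts. The list had a median of 0.08, against 0.01 for all starts tested. The call was SNAP23, a plasma membrane SNARE that supplies the Qb and Qc helices, in H1. Its guides had 4396, 3969, 3104, 1961 and 2579 counts in the H1 top library, against 839, 852, 699, 1818 and 2372 counts in the H1 bottom library. The first 3 by position had ratios of 2.07, 1.90 and 1.83 and the other 2 had -0.21 and -0.20. Its mean was 1.08 ± 1.17 (SD, n = 5 guides; permutation adjusted p 0.00141), and the call was lost by rank sum, at an adjusted p of 0.795, and with edgeR's quasi-likelihood test, at 0.288.

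The next farthest from 0 in the list did not pass. USE1 had 0.32 ± 0.65, BNIP1 0.31 ± 0.48 and STX5, the Qa SNARE of traffic into the Golgi, 0.17 ± 0.29 (SD, n = 5 guides each), with permutation adjusted p-values of 0.0853, 0.120 and 0.485. The second start of SNAP47 had 0.17 ± 0.50, beside STX5. STX18, which acts in a complex with USE1 and BNIP1, had -0.06 ± 0.17, and the Golgi SNAREs BET1 and BET1L had -0.05 ± 0.09 and 0.08 ± 0.25. STX12, an endosomal SNARE, and VAMP4, an R SNARE of the trans-Golgi network, had 0.01 ± 0.41 and 0.02 ± 0.15. STX4 had the lowest mean of the list, -0.09 ± 0.41.

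Genes that act on SNAREs were read from a list of 23, of which 18, with 19 starts, were compared. Of these starts 6 passed toward the top library and 0 toward the bottom library, against 2.38% and 1.52% of all starts tested. In H3, where all 6 lay, the shares were 4.18% and 3.28%. The list was chosen with earlier results of these data known, so these counts describe it and do not test it. The median of the list was 0.06. All 6 were subunits of HOPS, the tether that holds late endosomal SNAREs for assembly. They ran from 0.40 ± 0.48 for VPS33A, the subunit that binds SNAREs, to 2.11 ± 0.51 for VPS16 (SD, n = 5 guides each). The guides of VPS33A had ratios of 0.18, 0.71, 1.09, -0.05 and 0.07. VPS11, VPS16, VPS18 and VPS33A are shared with CORVET, a tether of early endosomes, so their calls are not particular to HOPS. Of the further CORVET subunits, VPS8 had 0.29 and did not pass, and TGFBRAP1 lay in H4 and was not compared. The second start of VPS41 had 0.00 ± 0.16. STX7 and VTI1B, with which HOPS acts, were counted in the same H3 libraries and had -0.02 and 0.07. The difference between HOPS and SNARE genes was not tested. The call of VPS33A was lost by the median, without the guide farthest from 0, by rank sum and with edgeR, and that of VPS18 (0.55 ± 0.52) by rank sum and with edgeR.

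The other 12 starts of that list held 0 calls by the permutation test adjusted over all targets, against 3.90% of all starts tested. At an unadjusted p under 0.05 in that test there were 2, SCFD1 and VPS8. That bound was met by 2243 of all 18116 starts and by 575 of the 3323 in H3, so 2 of 12 was near the background. NSF, the ATPase that takes SNARE bundles apart, had 0.05 ± 0.17 in H1, and its adaptors NAPA, NAPB and NAPG had -0.08, -0.08 and 0.00. VPS45, the partner of STX16 in the trans-Golgi route, had -0.02 ± 0.15 and VPS33B -0.01 ± 0.16. SCFD1, which serves fusion between endoplasmic reticulum and Golgi, had the lowest mean at -0.20 ± 0.34, and VPS8 of the CORVET tether 0.29 ± 0.22 (SD, n = 5 guides each). These did not pass.

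**Figure D4:**
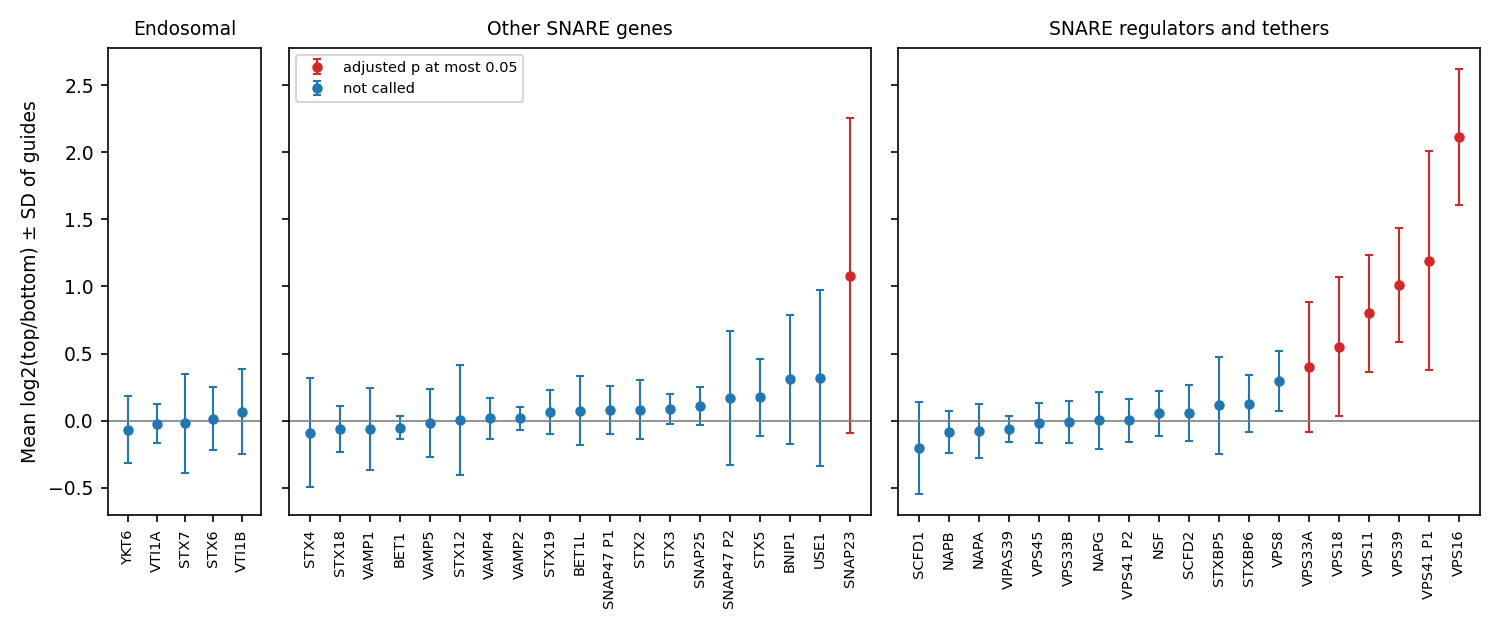
Mean log2(top/bottom) with the SD over guides for each compared start of the endosomal SNARE genes, the other SNARE genes and the SNARE regulators and tethers, in order of mean; red marks an adjusted p of at most 0.05. The endosomal SNARE genes lie between -0.07 and 0.07, while SNAP23 at 1.08 and 6 HOPS starts, up to 2.11 for VPS16, are red. The lowest of the red starts, VPS33A at 0.40, lies close to USE1 at 0.32, which did not pass.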

How the data were processed

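Guides were amplified from genomic DNA of the sorted quartiles in 27 PCR cycles and sequenced, per the labels' protocols. The authors deposited a table of guide counts for each library, raw and in whole numbers. Bowtie is named, without a version, per the submitters' processing notes, and no genome build is stated. Guides absent from 1 library of a sublibrary were taken as 0 there.

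Samples were grouped by their titles into sublibrary and quartile. A pseudocount of 1 was added, counts were divided by library totals, and the median non-targeting guide of a sublibrary was subtracted from each log2(top/bottom). Guides needed 50 counts in either library, which kept 91088 of 91463, and all 25 guides of the compared members. A target, the guides that share a symbol and a start label, needed 3 guides. Its mean was tested, two-sided, against sets of the same size from the non-targeting guides together with its own (numpy 2.4.6). The share of sets that held given guides of its own was exact. The non-targeting part of a set came from 100000 random draws. Benjamini-Hochberg adjustment was over all 18116 targets. The draws of non-targeting guides were shared between the targets of a sublibrary. edgeR 4.0.16, with guides as blocks, was an alternative on targets with 5 guides; its error, too, is between guides and not between samples. The methods were tested on simulated data. Reads carried no molecular identifiers, so the counting SDs cover counting error only.

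The members and lists were chosen with earlier results of these data known. Named genes were the 10 members, list genes that were called or among the 4 farthest from 0, and neighbours within 1000 bases; NSF and its adaptors, VPS45, VPS33B, STX12, VAMP4, STX4, STX18, BET1, BET1L, SNAP47, SCFD1 and VPS8 were named, where outside that rule, after their values were seen. Symbols were matched to RefSeq names of GRCh38.p14 (18814 of 18905), used for chromosomes, and promoters came from the RefSeq table.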

Additional observations from a re-analysis of the deposited data

How the results depend on the processing

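No paired analysis was possible because each group holds 1 library. Under 15 alternatives in pseudocount, count filter, centring, summary of guides and test, 0 of the 5 compared SNARE genes were called, with adjusted p-values from 0.843 to 1. Their means stayed between -0.10 and 0.12, and the sign, which was never called, turned in 8 cases. Without the guide farthest from 0 the values were 0.0163 for YKT6, 0.0393 for VTI1A, 0.124 for STX7, -0.0648 for STX6 and -0.0420 for VTI1B. With the median over guides VTI1A had 0.0137 and STX6 -0.0407, and with the 3 guides farthest from 0 STX7 had 0.000526. The count of other SNARE genes called, 1, became 2 with the 3 farthest guides and with adjustment within sublibraries, and 0 with edgeR or by rank sum. The count among regulators, 6, became 5 without the farthest guide and 4 by rank sum and with edgeR. It became 7, VPS8 among them, with adjustment within sublibraries. Over all targets 707 calls became 312 without the farthest guide and 254 with edgeR, and the 1066 past the fold became 343 at a fold of 1.5; the cause was not tested. In H3 the SD of non-targeting guides was 0.289 where counts were lowest and 0.155 where they were highest, so guides with more reads were measured more closely.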
